A study of Mus musculus with 12 samples.

Results

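Kinesins are motor proteins that move along microtubules or take microtubules apart, and the transcripts of this gene family were followed on the polysomes of mouse oocytes that lack or carry Cnot6l. Members were all genes whose symbol starts with Kif followed by a digit or a c. The rule found 42 of the 23235 genes in the deposited expression table, on 16 chromosomes. Cnot6l-/- (KO) oocytes were set against wild-type (WT) oocytes at 3 steps of meiotic maturation, with 2 libraries in each of 6 groups. These steps were the germinal vesicle (GV) stage, when the oocyte is arrested in prophase, metaphase I (MI) and metaphase II (MII). The mice were C57BL/6 on postnatal day 21. The GV oocytes were taken 48 h after PMSG, a gonadotropin that makes follicles grow, the MI oocytes after 8 h of culture and the MII oocytes after 16 h. The measured RNA was the fraction bound to polysomes, the strings of ribosomes on messages being translated. The labels do not state which segment of Cnot6l was removed, in which cells, how many oocytes went into a library, or whether the libraries of a group came from separate animals. The p-values therefore measure the spread between libraries, which may be technical.

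A kinesin couples ATP hydrolysis in its motor domain to movement along a microtubule, and most members walk towards the plus end. In a dividing oocyte, which has no centrioles, kinesins sort microtubules into a bipolar spindle, move chromosomes and build the central spindle through which the polar body is cut off. Other members carry vesicles, organelles and RNA granules. Cnot6l encodes a deadenylase of the CCR4-NOT complex, which shortens the poly(A) tails of messages. A full-grown oocyte does not transcribe its genes, so its messages are stored, recruited to ribosomes or removed.

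Levels are given as FPKM, counted fragments divided by transcript length and library size, which puts genes of different length on one scale. The summed FPKM ran from 884142 to 1663871 over the 12 libraries, and depth in reads is unknown. Cnot6l itself had 6.28 and 21.6 FPKM in KO against 38.7 and 16.1 in WT at GV, 23.5 and 16.5 in KO against 68.5 and 47.9 in WT at MI, and 16.4 and 16.0 in KO against 65.2 and 49.4 in WT at MII. The genotypes did not overlap at MI and MII, and overlapped at GV. The 10 oocyte markers summed to between 30040 and 79290 FPKM in every library. The 15 cumulus and granulosa markers summed to 163 and 225 FPKM in KO against 309 and 332 in WT at GV, 182 and 148 in KO against 126 and 138 in WT at MI, and 87.4 and 127 in KO against 77.7 and 56.0 in WT at MII. Their sum was thus lower in KO at GV and lowest at MII in both genotypes. Inha had 113 and 152 FPKM in KO GV and 201 and 239 in WT GV, while Foxl2 was listed at 0 in all 12 libraries. The part of these cells in the kinesin values was not tested. In bulk RNA of this kind, fewer cells of a type and less RNA per cell cannot be told apart.

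Of the 42 kinesins, 19 reached a group mean of at least 10 FPKM, 15 peaked between 1 and 10 FPKM (1.26 for Kif1c to 7.63 for Kif24), and 8 stayed under 1 FPKM in every group. Kif12, Kif19a, Kif2b and Kif7 were listed at 0 in all 12 libraries. The whole family made up 0.144% to 0.181% of the summed FPKM in KO libraries and 0.126% to 0.233% in WT libraries. Its sum averaged 1628 ± 121 FPKM in KO against 1601 ± 38.7 in WT at GV, 2543 ± 65.0 in KO against 1616 ± 40.0 in WT at MI, and 2137 ± 75.6 in KO against 1979 ± 118 in WT at MII (SD, n = 2 each). The KO MI sum stood above the WT MI sum by more than the spread of the libraries, but with each library set to the same total the sums were 1834 in KO MI and 1828 in WT MI, and after median scaling 1643 in KO MI and 2042 in WT MI. At MII the order turned under both, with 2096 in KO and 2654 in WT at the same total, and 2068 in KO and 2912 in WT after median scaling.

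**Figure D1:**
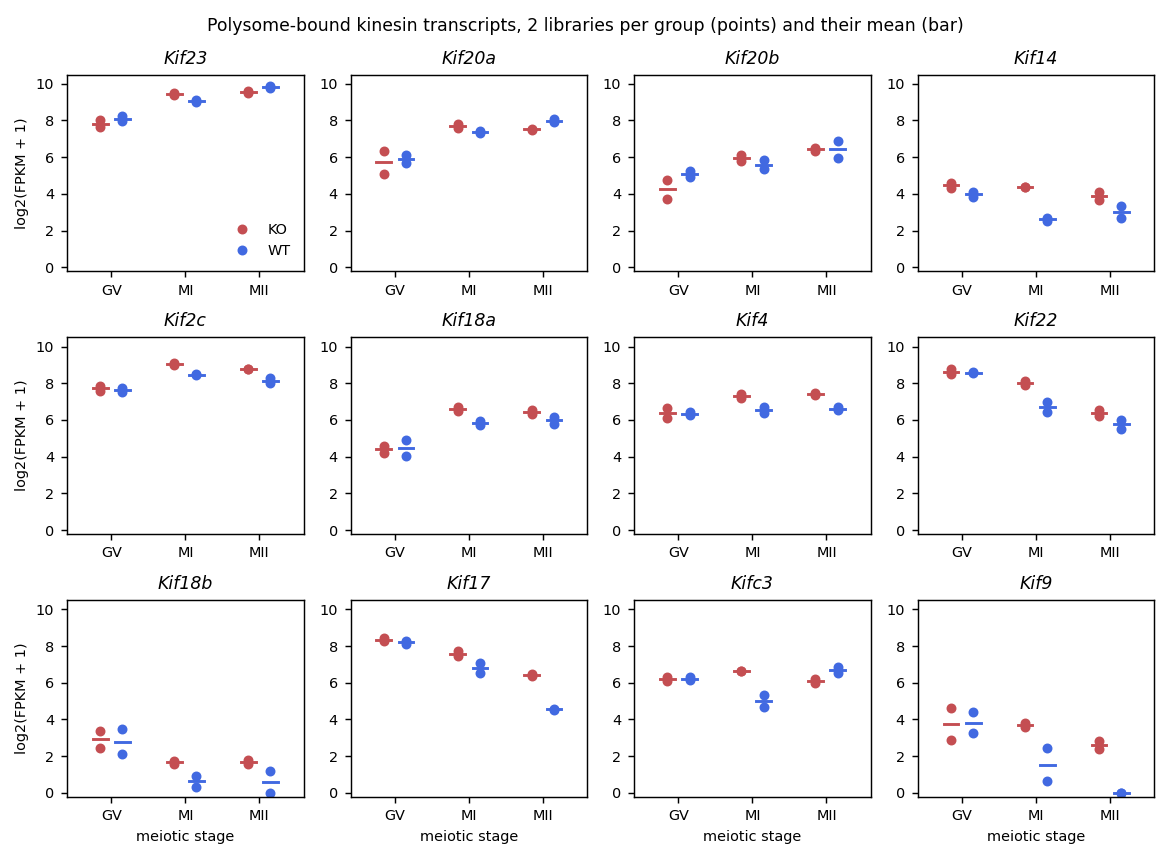
Levels of 12 kinesins as log2(FPKM + 1) (vertical axis, the same in each panel) at GV, MI and MII, with a point for each of the 2 libraries per group and a bar for their mean, KO to the left of WT at each stage. Kif23 stands at 678 to 764 FPKM in the KO MI and KO MII libraries and at 865 and 924 FPKM in WT MII, while Kif17 stands at 89.3 and 81.9 FPKM in KO MII and at 22.8 and 22.0 FPKM in WT MII.

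Which kinesin led changed as meiosis went on. At GV the leading pair in both genotypes was Kif22, a chromokinesin whose motor pushes chromosome arms away from the poles, and Kif17, a transport motor known from neuronal dendrites and from germ cells of the testis. Kif22 had 356 and 434 FPKM in KO GV and 389 and 374 in WT GV, and Kif17 had 309 and 344 FPKM in KO GV and 279 and 306 in WT GV. Kif23 and Kif2c followed, overlapping each other in KO GV (198 and 256 FPKM for Kif23, 191 and 231 for Kif2c) and not in WT GV (249 and 298 for Kif23, 209 and 186 for Kif2c). At MI and MII, Kif23 led in every library and Kif2c was next in KO. In WT MII the second place was shared, since Kif2c (255 and 311 FPKM) and Kif20a (266 and 237 FPKM) overlapped.

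Because a share of the kinesin FPKM within a library does not depend on the scale of that library, shares were set side by side. Kif23 took 12.8% and 14.9% of all kinesin FPKM in KO against 15.8% and 18.3% in WT at GV. It took 27.2% and 27.9% in KO against 31.1% and 34.8% in WT at MI, and 34.9% and 35.0% in KO against 45.7% and 44.8% in WT at MII. The share was lower in both KO libraries than in both WT libraries at all 3 stages. The 4 kinesins of the central spindle together averaged 20.0% in KO against 23.7% in WT at GV, 38.8% in KO against 46.5% in WT at MI, and 48.1% in KO against 62.8% in WT at MII. The KO MII libraries (47.7% and 48.5%) lay within the range of the WT MI libraries (44.2% and 48.7%). Most of this joint share was Kif23, and the members differed. The Kif20a share was also lower in KO at MI and MII. The Kif20b share overlapped at MI and MII (4.14% and 3.8% in KO, 3.26% and 5.62% in WT at MII). The Kif14 share was higher in KO at all 3 stages (0.796% and 0.769% in KO, 0.338% and 0.296% in WT at MI). Kif17 took 20.1% and 20.1% in KO against 17.7% and 18.8% in WT at GV, 6.91% and 8.09% in KO against 8.07% and 5.75% in WT at MI, and 4.08% and 3.93% in KO against 1.20% and 1.07% in WT at MII. The genotypes overlapped in this share at MI and stood apart at GV and MII. Kif23 was 8.55 and 8.90 times Kif17 in the KO MII libraries and 38.0 and 41.9 times Kif17 in the WT MII libraries, while the ratio overlapped at MI (3.93 and 3.45 in KO, 3.86 and 6.05 in WT). Other pairs gave other patterns. The ratio of Kif2c to Kif22 stood apart at MI (1.93 and 2.13 in KO, 2.9 and 4.07 in WT). It overlapped at MII (4.71 and 5.98 in KO, 5.77 and 4.91 in WT). The ratio of Kif20a to Kif22 stood apart at MI (0.672 and 0.923 in KO, 1.37 and 1.89 in WT). At MII that ratio stood apart too (1.9 and 2.55 in KO, 6.03 and 3.74 in WT). With 2 libraries against 2, an exact permutation test of a share cannot reach p = 0.05, so these shares are given as values.

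**Figure D2:**
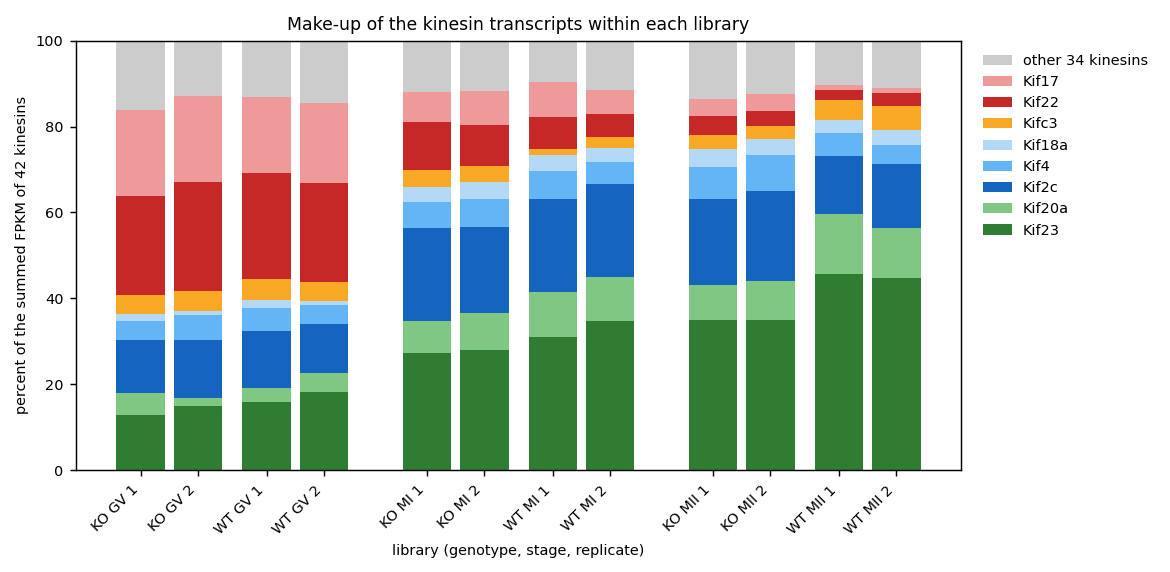
Share of each library's summed kinesin FPKM (vertical axis, percent) held by 8 kinesins and by the other 34 together, as a stacked bar for each of the 12 libraries, KO left of WT at each stage. The Kif23 segment is 34.9% and 35.0% in KO MII and 45.7% and 44.8% in WT MII, and the Kif17 segment is 4.08% and 3.93% in KO MII and 1.20% and 1.07% in WT MII.

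Changes were tested with limma on log2(FPKM + 1) over the 11667 genes with a mean of at least 1 FPKM, and a gene counts as called at an adjusted p (Benjamini-Hochberg, all genes) below 0.05. A total of 27 kinesins entered the test; of the other 15, no library exceeded 5.07 FPKM (Kif26b). Among the tested members, 12 were called in at least 1 of 7 comparisons of 2 groups, beside 50.9% of all tested genes. They were 4 of 4 central spindle kinesins, 5 of 10 spindle assembly kinesins, 2 of 10 transport kinesins and 1 of 2 kinesins of cilia. Deposited FPKM shift as a whole between groups. The median log2 difference of all tested genes was -0.06 for KO against WT at GV, 1.03 at MI and 0.81 at MII. It was -0.87 for MI against GV and -0.27 for MII against MI in WT, and 0.26 and -0.59 in KO. Each kinesin is read against these medians, and values after median scaling stand beside calls that it ends or turns. This scaling divides each library by the median, over 5734 genes, of a gene's level divided by its geometric mean over the 12 libraries. These genes were well expressed and above 0 in every library. After this scaling the median of all tested genes was 0.02 for KO against WT at GV, 0.21 at MI and 0.41 at MII. It was -0.32 for MI against GV and -0.13 for MII against MI in WT, and -0.08 for each step in KO.

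In KO oocytes, MI against GV, 6 of the 27 kinesins were higher and 0 were lower, where 8.89% of all genes were higher and 1.35% lower. In WT oocytes 4 kinesins were higher and 5 lower at this step, where 3.06% of all genes were higher and 21.7% lower. The median kinesin changed by 0.19 in KO and -0.38 in WT on the log2 scale. From MI to MII, 0 kinesins were higher and 2 lower in KO, where 0.163% of all genes were higher and 7.18% lower, and the median kinesin differed by -0.27. In WT 2 were higher and 2 lower, where 5.68% of all genes were higher and 16.4% lower, and the median kinesin differed by 0.06. These WT calls at the second step rest on the spread shared by all groups, since a fit of only WT MI and WT MII called 0 kinesins. After median scaling, 4 kinesins were higher and 2 lower at MI against GV in KO (4.19% and 2.32% of all genes), and 5 were higher and 1 lower in WT (6.99% and 7.62%). For MII against MI, 1 was higher and 0 lower in KO (0.84% and 0.677%), and 3 were higher and 1 lower in WT (8.97% and 14.9%). At an unadjusted p below 0.05 the numbers of kinesins were 10 and 2 in KO and 11 and 5 in WT for the 2 steps. The share of all genes at that threshold was not counted, so these numbers have no yardstick.

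Kif23 is the motor of centralspindlin, the complex with Racgap1 that bundles the central spindle for cytokinesis. It lies on chromosome 9 (61765085 to 61794606 in mm9, minus strand). Its values were 198 and 256 FPKM in KO against 249 and 298 in WT at GV, 678 and 722 in KO against 512 and 552 in WT at MI, and 764 and 729 in KO against 865 and 924 in WT at MII. The stages stood apart in WT at both steps, and in KO at the first step and, by a small gap, at the second. Kif23 rose at MI against GV by 1.63 in KO (log2, limma adjusted p = 3.73e-05) and by 0.96 in WT (limma adjusted p = 0.00115), both called under all 18 alternative settings. At MII against MI it rose in WT by 0.75 (limma adjusted p = 0.0041). In KO that difference was 0.09 and not called, but 0.67 after median scaling (limma adjusted p = 0.0456). KO against WT, it differed by 0.40 at MI (limma adjusted p = 0.0625) and -0.26 at MII (limma adjusted p = 0.211), neither called. After median scaling these differences were -0.57 at MI (limma adjusted p = 0.0478) and -0.87 at MII (limma adjusted p = 0.00151), so the direction at MI depends on the scale of the libraries.

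Kif20a brings the chromosomal passenger complex to the central spindle. It had 79.8 and 33.0 FPKM in KO against 50.6 and 68.7 in WT at GV, 188 and 224 in KO against 169 and 160 in WT at MI, and 178 and 187 in KO against 266 and 237 in WT at MII. KO lay above WT at MI and below it at MII without overlap, with log2 differences of 0.32 (limma adjusted p = 0.486) and -0.46 (limma adjusted p = 0.357) that were not called. After median scaling they were -0.64 and -1.06, and the second was called (limma adjusted p = 0.0474). At MI against GV it rose by 1.98 in KO (limma adjusted p = 0.00385) and by 1.47 in WT (limma adjusted p = 0.0119). The KO call was lost without KO MI replicate 2 (limma adjusted p = 0.0502) and in a fit of only the groups compared (0.0674), and the WT call without WT GV replicate 1 or WT MI replicate 1 (limma adjusted p up to 0.0919). The locus overlaps Cdc23 over 1595 bases and Brd8 over 187 bases on the other strand, out of 8654. The strand setting of the authors' counting is not given in the sources used here, so shared reads are possible.

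Kif20b, another cytokinesis motor, had 26.2 and 12.3 FPKM in KO against 29.7 and 36.5 in WT at GV, 54.2 and 68.1 in KO against 39.5 and 55.9 in WT at MI, and 90.7 and 79.3 in KO against 61.7 and 116 in WT at MII. The genotypes overlapped at MI and MII, and KO lay lower at GV. The MI to GV difference in KO, 1.70, was called (limma adjusted p = 0.0257), but not without KO GV replicate 2, KO MI replicate 1 or KO MI replicate 2 (limma adjusted p up to 0.192), nor after median scaling (1.31, limma adjusted p = 0.106). Kif14, which binds the midzone protein Prc1 and citron kinase, had 19.1 and 23.5 FPKM in KO against 13.2 and 16.3 in WT at GV, 19.9 and 19.9 in KO against 5.55 and 4.70 in WT at MI, and 11.7 and 16.5 in KO against 5.31 and 8.93 in WT at MII. KO exceeded WT in both libraries at each stage. Of the 4 central spindle kinesins, Kif14 was the 1 called lower at MI in WT, where it fell by 1.36 against GV (limma adjusted p = 0.0452). That call was lost without any 1 of the 10 libraries outside WT MII (limma adjusted p up to 0.186) and after median scaling (-0.76, limma adjusted p = 0.300). KO exceeded WT at MI by 1.77 (SE 0.437, limma adjusted p = 0.0151), a call lost without either KO MI library (limma adjusted p up to 0.0896) and after median scaling (0.89, limma adjusted p = 0.329).

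**Figure D3:**
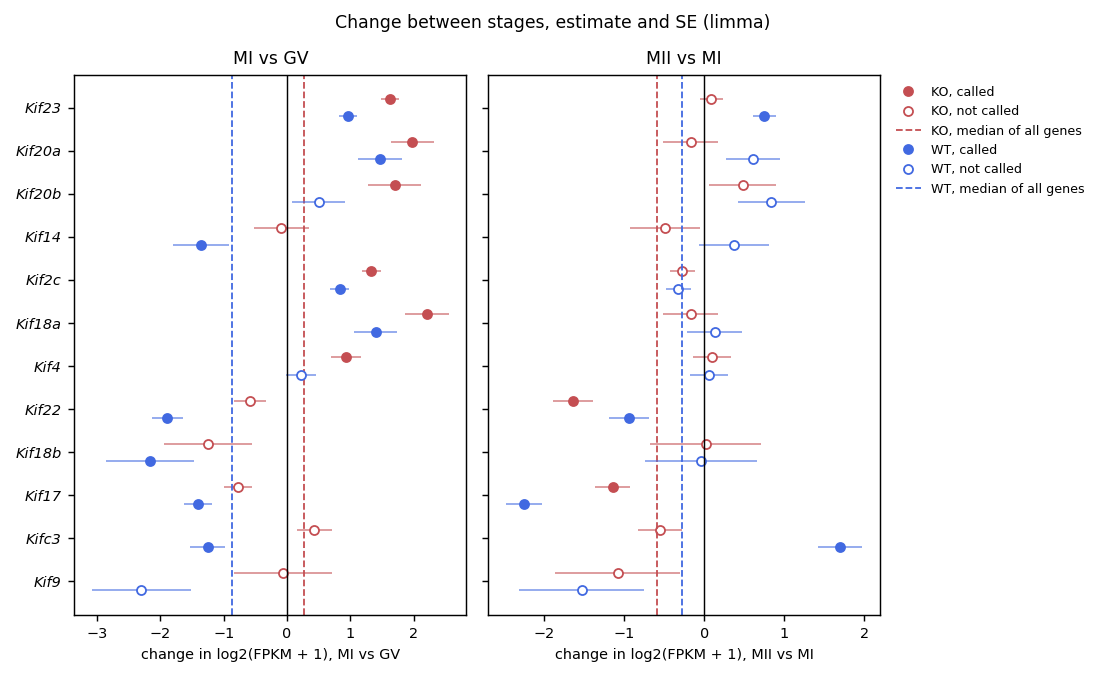
Change between stages in log2(FPKM + 1), estimate and SE from limma (horizontal axis), MI against GV in the left panel and MII against MI in the right panel, with KO and WT drawn for each gene. Only the 12 kinesins called in at least 1 of 7 comparisons of 2 groups are drawn. Kif23, Kif2c, Kif18a and Kif20a lie to the right of 0 in both genotypes at MI against GV, and Kifc3 at MII against MI lies at -0.55 in KO and 1.70 in WT.

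Kif2c is a depolymerase that removes tubulin from microtubule ends at centromeres and corrects faulty attachments. It had 191 and 231 FPKM in KO against 209 and 186 in WT at GV, 542 and 517 in KO against 358 and 344 in WT at MI, and 441 and 438 in KO against 255 and 311 in WT at MII. KO was above WT without overlap at MI and MII, and the genotypes overlapped at GV. It rose at MI against GV by 1.33 in KO (limma adjusted p = 0.000244) and by 0.83 in WT (limma adjusted p = 0.00339), both under all 18 alternatives. KO exceeded WT by 0.59 at MI (SE 0.151, limma adjusted p = 0.0177) and by 0.64 at MII (limma adjusted p = 0.00989), less than the median gene at both stages. The MI call was lost without any 1 of the 4 MI libraries (limma adjusted p up to 0.103), and the MII call without either KO MII library (limma adjusted p up to 0.0552) and in a fit of only the groups compared (0.073). After median scaling neither was called, at -0.37 for MI and 0.04 for MII (limma adjusted p = 0.203 and 0.893).

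Kif18a, which damps plus-end growth and aligns chromosomes at the spindle equator, had 22.7 and 17.7 FPKM in KO against 28.5 and 15.1 in WT at GV, 90.2 and 103 in KO against 61.6 and 51.9 in WT at MI, and 93.8 and 78.2 in KO against 54.9 and 70.3 in WT at MII. KO lay above WT at MI and MII, and the GV values overlapped. It rose at MI against GV by 2.21 in KO (limma adjusted p = 0.00179, called under all 18 alternatives) and by 1.40 in WT (limma adjusted p = 0.0141). The WT call was lost without WT GV replicate 2 or WT MI replicate 1 (limma adjusted p up to 0.106), and in a fit of only the groups compared (0.0927). Its relative Kif18b, which acts on astral microtubules, had 4.51 and 9.23 FPKM in KO against 3.31 and 10.1 in WT at GV, 2.34 and 1.98 in KO against 0.90 and 0.25 in WT at MI, and 2.41 and 2.01 in KO against 0 and 1.26 in WT at MII. It went the other way in WT, where it fell at MI by 2.17 against GV (limma adjusted p = 0.0444). The call was lost without any of 7 libraries, namely WT GV replicate 2 and the 2 libraries each of KO MI, KO MII and WT MI (limma adjusted p up to 0.244), and after median scaling (-1.76, limma adjusted p = 0.138).

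Kif4 is a chromokinesin that shapes mitotic chromosomes and sets the length of the central spindle with Prc1. It had 68.2 and 99.5 FPKM in KO against 85.3 and 74.8 in WT at GV, 147 and 169 in KO against 105 and 82.6 in WT at MI, and 163 and 175 in KO against 103 and 91.2 in WT at MII. Every KO MI and KO MII library lay above every WT library. KO exceeded WT by 0.76 at MI (SE 0.240, limma adjusted p = 0.0391) and by 0.79 at MII (limma adjusted p = 0.0311), near or below the median gene. The MI call was lost without any of 8 libraries, those of KO MI, KO MII, WT GV and WT MI (limma adjusted p up to 0.193), and the difference was -0.20 after median scaling. The MII call was lost without either KO MII library or WT MII replicate 2 (limma adjusted p up to 0.136), and after median scaling (0.19, limma adjusted p = 0.597). At MI against GV it rose in KO by 0.93 (limma adjusted p = 0.0331), a call lost without KO GV replicate 1 or any 1 of the KO MI and KO MII libraries (limma adjusted p up to 0.235), and after median scaling (0.55, limma adjusted p = 0.275).

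Kif22 was the most abundant spindle kinesin at GV and the 1 called lower at both steps in WT. Its values were 356 and 434 FPKM in KO against 389 and 374 in WT at GV, 280 and 243 in KO against 123 and 84.7 in WT at MI, and 93.8 and 73.2 in KO against 44.1 and 63.3 in WT at MII. The stages stood apart at both steps in both genotypes, and KO lay above WT at MI and MII. In WT it fell by 1.89 at MI against GV (limma adjusted p = 0.000568, called under all 18 alternatives) and by 0.94 at MII against MI (limma adjusted p = 0.0219, lost when replicate 1 of WT MI or of WT MII was left out, at up to 0.138, and at 0.0605 after median scaling). In KO the MI to GV difference was -0.59 and not called (limma adjusted p = 0.203; -0.97 with 0.0465 after median scaling), and the level fell by 1.64 at MII against MI (limma adjusted p = 0.00362; -1.06 with 0.0829 after median scaling). KO exceeded WT at MI by 1.34 (SE 0.250, limma adjusted p = 0.00412), a call kept without each single library and lost after median scaling, where the difference was 0.38 (limma adjusted p = 0.469).

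Among the spindle assembly kinesins with no call, Kif11, the motor that slides antiparallel microtubules apart, had 22.0 and 18.8 FPKM in KO against 21.1 and 25.8 in WT at GV, 45.5 and 45.2 in KO against 22.2 and 26.5 in WT at MI, and 37.4 and 36.8 in KO against 17.6 and 37.8 in WT at MII. KO lay above WT at MI and overlapped it at GV and MII. Kifc1, a minus-end motor that gathers spindle poles, had 8.33 and 14.6 FPKM in KO against 16.5 and 8.13 in WT at GV, 37.7 and 34.3 in KO against 22.7 and 7.94 in WT at MI, and 23.0 and 27.1 in KO against 8.05 and 7.18 in WT at MII. KO lay above WT at MI and MII. Kif2a, a depolymerase at spindle poles, had 12.7 and 9.98 FPKM in KO against 19.9 and 10.8 in WT at GV, 13.7 and 12.4 in KO against 10.2 and 3.34 in WT at MI, and 14.6 and 7.42 in KO against 12.2 and 7.60 in WT at MII. For Kif2a the KO libraries lay above the WT libraries at MI and overlapped them at GV and MII. Kif15, which can stand in for Kif11 in cultured cells, reached at most 2.41 FPKM in KO libraries and 4.88 FPKM in WT libraries. Kifc5b reached at most 2.47 FPKM in KO and 2.13 FPKM in WT libraries. Kifc5b and Kifc1 share sequence, since 34.9% of the 50-base words of Kifc5b transcripts also occur in those of Kifc1 and 45.3% the other way, so the split of reads between them is uncertain. The pseudogene Kif4-ps has a line of its own in the table; the sequence it shares with Kif4 was not measured, and how reads were split between them is not known.

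Of the 10 tested transport kinesins, Kif17 was the 1 called between genotypes at MII. Kif17, on chromosome 4 (137818166 to 137857888 in mm9, plus strand), had 309 and 344 FPKM in KO against 279 and 306 in WT at GV, 173 and 209 in KO against 133 and 91.3 in WT at MI, and 89.3 and 81.9 in KO against 22.8 and 22.0 in WT at MII. KO lay above WT without overlap at all 3 stages. KO exceeded WT by 1.89 at MII (SE 0.221, limma adjusted p = 0.000147), 1.07 more than the median gene, and the difference was 1.30 after median scaling (limma adjusted p = 0.00206). This was called under all 18 alternatives, with adjusted p from 0.000131 to 0.0330. At MI the difference was 0.78 (SE 0.221, limma adjusted p = 0.0262), less than that of the median gene. That call was lost without either KO MI library or WT MI replicate 2 (limma adjusted p up to 0.165), and after median scaling the difference was -0.18. In WT, Kif17 fell by 1.40 at MI against GV (limma adjusted p = 0.00159; -0.73 with 0.0528 after median scaling) and fell by 2.25 at MII against MI (limma adjusted p = 5.63e-05). In KO the first difference was -0.78 and not called (limma adjusted p = 0.0525), but was called after median scaling (-1.16, limma adjusted p = 0.0108) and at equal totals (-1.40, limma adjusted p = 0.00416), and the level fell by 1.14 at MII against MI (limma adjusted p = 0.0119), a call lost without any 1 of the 4 KO MI and KO MII libraries (limma adjusted p up to 0.139) and after median scaling (-0.56, limma adjusted p = 0.385).

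Kifc3, a minus-end motor known at cell junctions and at centrosomes, had a low point at MI in WT that was not seen in KO. It had 68.3 and 78.0 FPKM in KO against 77.7 and 70.6 in WT at GV, 98.8 and 98.8 in KO against 24.1 and 38.7 in WT at MI, and 72.0 and 62.5 in KO against 90.7 and 114 in WT at MII. KO was above WT at MI and below it at MII without overlap, and the GV values overlapped. In WT it fell by 1.25 at MI against GV (limma adjusted p = 0.00894) and rose by 1.70 at MII against MI (limma adjusted p = 0.00155). The first of these calls was lost without WT GV replicate 1 or WT MI replicate 1 (limma adjusted p up to 0.0612) and after median scaling (-0.59, limma adjusted p = 0.185). KO exceeded WT at MI by 1.66 (SE 0.276, limma adjusted p = 0.00234), kept without each single library and lost after median scaling (0.71, limma adjusted p = 0.186). At MII the difference was -0.59 and not called (limma adjusted p = 0.138), and -1.19 after median scaling (limma adjusted p = 0.00991).

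The remaining transport kinesins at 10 FPKM or more had no call. Kif3a, which with Kif3b forms the motor pair of the heterotrimer that builds cilia, had 51.6 and 64.7 FPKM in KO against 29.3 and 41.7 in WT at GV, 37.0 and 32.8 in KO against 14.6 and 25.5 in WT at MI, and 20.9 and 17.0 in KO against 26.0 and 11.9 in WT at MII. KO lay above WT at GV and MI. Kif5c and Kif5b are heavy chains of conventional kinesin. Kif5c had 8.01 and 18.4 FPKM in KO against 10.6 and 14.8 in WT at GV, 13.6 and 18.7 in KO against 6.70 and 13.0 in WT at MI, and 36.6 and 27.6 in KO against 17.4 and 12.7 in WT at MII. The KO libraries lay higher at MI and MII for Kif5c, without a call. Kif5b had 12.9 and 11.6 FPKM in KO against 3.93 and 6.30 in WT at GV, 13.6 and 11.5 in KO against 6.05 and 11.5 in WT at MI, and 10.7 and 10.97 in KO against 8.69 and 4.52 in WT at MII. For Kif5b the KO libraries lay above the WT libraries at each stage. Kif16b, which moves early endosomes, had 26.5 and 5.14 FPKM in KO against 11.2 and 8.55 in WT at GV, 11.2 and 12.1 in KO against 2.72 and 10.4 in WT at MI, and 6.58 and 4.85 in KO against 8.77 and 3.17 in WT at MII. Kif1b, which carries mitochondria and synaptic vesicle precursors, had 11.98 and 10.7 FPKM in KO against 10.4 and 7.13 in WT at GV, 10.7 and 9.60 in KO against 4.58 and 7.0 in WT at MI, and 15.9 and 8.06 in KO against 5.77 and 6.96 in WT at MII. The Kif1b values of KO lay above those of WT at each stage, and the Kif16b values at MI.

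Kif9, known in mouse for the beating of sperm flagella and cilia, had 23.9 and 6.38 FPKM in KO against 8.55 and 20.1 in WT at GV, 11.2 and 12.9 in KO against 0.56 and 4.35 in WT at MI, and 6.13 and 4.32 in KO against 0 and 0 in WT at MII. It was listed at 0 in both WT MII libraries, so no fold is given. The difference at MII was called (limma adjusted p = 0.0290), but not without any 1 of the 4 MII libraries (limma adjusted p up to 0.131) and not without the filter on low genes (limma adjusted p = 0.0556). Kif24, which acts at the centriole to hold back cilia, ranged from 3.90 to 8.19 FPKM in KO and from 0.84 to 11.1 FPKM in WT, with no call.

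Set side by side, KO against WT gave 0 higher and 0 lower kinesins of 27 at GV, where 0.163% of all genes were higher and 1.4% lower. At GV 1 kinesin had an unadjusted limma p below 0.05, a threshold at which the share of all genes was not counted. At MI 6 were higher and 0 lower, where 27.9% of all genes were higher and 0.463% lower. At MII 4 were higher and 0 lower, where 25.4% were higher and 3.2% lower. The median kinesin differed by -0.03, 0.76 and 0.46 at the 3 stages, against -0.06, 1.03 and 0.81 for all genes. KO libraries lay above WT libraries without overlap for 6, 20 and 13 of the 27 kinesins, where 17.9%, 69.5% and 48.9% of all genes did. They lay below for 3, 0 and 5 kinesins, where 24.2%, 3.13% and 10.6% of all genes did. The count at MI was 2 to 7 when single libraries were left out, lowest without a KO MI library, and the count at MII was 1 to 5, lowest without a KO MII library. After median scaling, 0 kinesins were called at GV, where 0.197% of all genes were higher and 0.96% lower. With that scaling 0 kinesins were higher and 1 lower at MI (Kif23), where 2.16% of all genes were higher and 2.46% lower. At MII 2 were then higher (Kif17 and Kif9) and 4 lower (Kif20a, Kif21b, Kif23 and Kifc3), where 16.1% were higher and 8.31% lower.

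**Figure D4:**
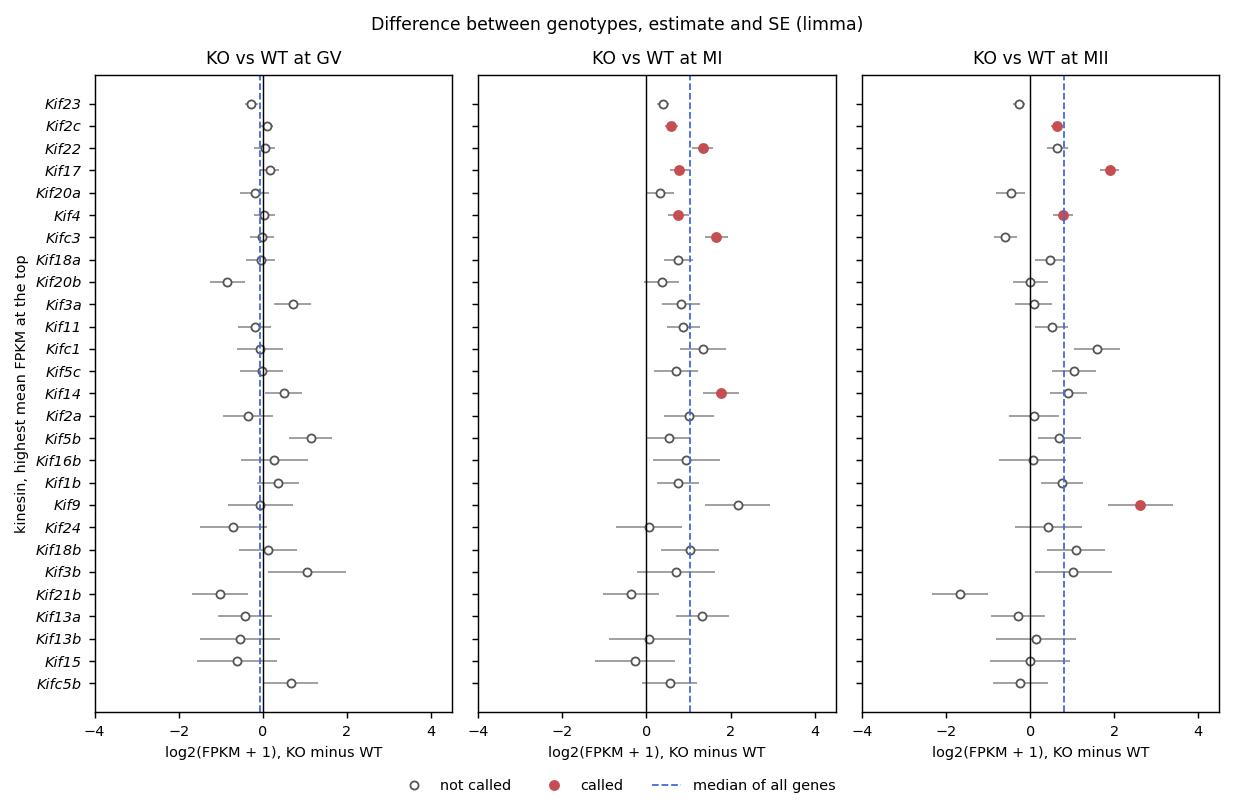
Difference between KO and WT in log2(FPKM + 1), estimate and SE from limma (horizontal axis), for the 27 tested kinesins in order of mean FPKM (vertical axis), in a panel each for GV, MI and MII; filled points are called and the dashed line is the median of all tested genes. At MI most kinesins lie right of 0, and the median kinesin, at 0.76, lies to the left of the dashed line at 1.03. At MII Kif17 lies at 1.89, to the right of the line at 0.81.

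Whether the change between stages differed between the genotypes was tested by the interaction term, the signed log2 change in KO minus that in WT. For MI against GV, 2 kinesins were called with a positive term and 0 with a negative one. Among all genes, 14.4% had a positive call and 0.266% a negative one. The 2 kinesins were Kifc3 (1.68, SE 0.390, limma adjusted p = 0.0187) and Kif22 (1.30, SE 0.353, limma adjusted p = 0.0349). Kifc3 changed by 0.43 in KO and -1.25 in WT, and Kif22 by -0.59 in KO and -1.89 in WT. Both thus fell in WT, and neither change was called in KO. The Kifc3 call was lost without KO GV replicate 1, WT GV replicate 1 or 2, or KO MI replicate 1 or 2 (limma adjusted p up to 0.0741). The Kif22 call was lost without any of 7 libraries, which are the 8 GV and MI libraries other than WT MI replicate 1 (limma adjusted p up to 0.122). Neither interaction was called after median scaling (limma adjusted p = 0.580 for Kifc3 and 0.866 for Kif22). With that scaling 0.643% of all genes had a positive call and 0.926% a negative one. For MII against MI, 0 kinesins had a positive call and 1 a negative one, where 2.81% of all genes had a positive and 3.71% a negative call. It was Kifc3 at -2.25 (SE 0.390, limma adjusted p = 0.00745), called under all 18 alternatives with adjusted p from 0.00562 to 0.0422. For Kif17 the term was 1.10 at this step (limma adjusted p = 0.0661), and 1.48 after median scaling (limma adjusted p = 0.0199). With that scaling 4.51% of all genes had a positive call and 1.73% a negative one.

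Genes that work with kinesins were counted in the same fits. Their counts stand against 27.9% of all genes higher and 0.463% lower in KO at MI, and 25.4% higher and 3.2% lower at MII. The medians stand against 1.03 and 0.81. After median scaling 2.16% of all genes were higher and 2.46% lower at MI, and 16.1% were higher and 8.31% lower at MII. Of 20 partners of spindle kinesins, 12 were higher in KO than WT at MI and 0 lower, and 7 were higher and 1 lower at MII, with medians of 0.93 and 0.32. After median scaling 1 was higher and 1 lower at MI, and 5 were higher and 5 lower at MII. Racgap1, the other subunit of centralspindlin, had 201 and 245 FPKM in KO MI and 90.3 and 72.0 in WT MI (log2 difference 1.45, limma adjusted p = 0.00461; 0.49 with 0.394 after median scaling). At MII it had 108 and 91.9 FPKM in KO and 161 and 150 in WT, a difference of -0.64 that was not called (limma adjusted p = 0.112; -1.24 with 0.00912 after median scaling). Aurkc, a kinase of the passenger complex in germ cells, had 1501 and 1433 FPKM in KO MI and 227 and 350 in WT MI (2.38, limma adjusted p = 3.52e-05; 1.41 with 0.00237 after median scaling). Tubulins are the family that includes the subunits of the track. Of 16 tubulins, 10 were higher in KO at MI and 0 lower, and 8 were higher at MII and 0 lower. Their medians were 0.94 and 0.83. After median scaling 1 was higher and 1 lower at MI, and 8 were higher and 3 lower at MII. Tubb5 had 143 and 106 FPKM in KO MII and 21.1 and 17.6 in WT MII (2.61, limma adjusted p = 2.72e-05; 2.03 with 0.000249 after median scaling). In each of these values the KO and WT libraries did not overlap.

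A list of 27 genes covered dynein, the motor that walks the other way, dynactin, and proteins that work with them. Of these genes, 12 were higher in KO at MI and 0 lower, and 9 were higher and 1 lower at MII. The medians were 1.25 and 1.19. After median scaling 1 was higher and 0 lower at MI, and 6 were higher and 1 lower at MII. Dynlrb1, a dynein light chain, had 247 and 200 FPKM in KO MII and 31.7 and 103 in WT MII (1.94, limma adjusted p = 0.00609; 1.34 with 0.0397 after median scaling). Among 6 genes for kinesin light chains, other subunits and kinesins under other names, 1 was higher in KO at MI and 1 at MII, in both cases Klc3, which was listed at 0 in all 4 WT MI and WT MII libraries. Cenpe, a kinetochore kinesin outside the symbol rule, rose in KO from 50.9 and 55.7 FPKM (GV) to 121 and 131 FPKM (MI). That rise was 1.23 (limma adjusted p = 0.00575). Its WT libraries held 72.9 and 69.8 FPKM (GV), 96.5 and 89.0 (MI), then 196 and 151 (MII). The last WT step was called too (0.89, limma adjusted p = 0.0184). KO MII libraries held 196 and 144 FPKM, overlapping WT MII. Cenpe was not called between genotypes, and its stage changes are given only as deposited. Of 11 cargo adaptors, 3 were higher in KO at MI and 2 at MII, with 0 lower at either stage. After median scaling, the light chain list had 0 higher at MI and 1 at MII (Klc3), and the adaptors 0 at MI and 2 higher and 2 lower at MII. At GV, KO against WT, 1 tubulin and 1 spindle partner were lower, where 1.4% of all genes were lower and 0.163% higher. No other gene of these lists was called at GV. After median scaling the tubulin (Tubb2a) was still called lower and the spindle partner (Nusap1) was not called. With that scaling 0.96% of all genes were lower at GV and 0.197% higher.

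Messages that are recruited to polysomes during maturation often carry a cytoplasmic polyadenylation element near their end, written TTTTAT or TTTTAAT in DNA letters. The last 100 bases of each deposited gene locus were searched for these letters on the gene's own strand, in the mm9 genome. They occurred in 6 of the 27 tested kinesins (22.2%) and in 2226 of 11659 tested genes (19.1%). A polyadenylation signal, AATAAA or ATTAAA, occurred in 23 of the 27 (85.2%) and in 79.1% of the genes. The 30 bases around the match are shown for the 5 of these 6 kinesins that reached 10 FPKM, with the match in capitals, so that its letters can be read beside their values above. Coordinates are 1-based in mm9, at chr19:37496320-37496349 (plus strand) for Kif11, chr2:109181856-109181885 (plus strand) for Kif18a, chr19:35050187-35050216 (plus strand) for Kif20b, chr7:134171245-134171274 (minus strand) for Kif22 and chr17:34012657-34012686 (minus strand) for Kifc1.
Kif11: aattttttaaattaaattaTTTTAATtttt
Kif18a: aatgtgctaataTTTTATtacttggtatat
Kif20b: cttgtatataaTTTTAATtcaataaatata
Kif22: acgtgttgtgtaaatacagtTTTTATtcca
Kifc1: gttgagacatgaTTTTATtgggtgaacaat
Of these windows, that of Kif22 held no polyadenylation signal and did not lie within 1 annotated exon. The windows of Kif23, Kif2c, Kif17 and Kif20a held no match to TTTTAT or TTTTAAT, which says only that these letters are not in those 100 bases. None of these 4 windows lay within 1 annotated exon, and the Kif20a locus did not end within 10 bases of an annotated exon end. The windows of 17 of the 27 tested kinesins lie within 1 annotated exon, and 24 of the 27 loci end within 10 bases of an annotated exon end.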

How the data were processed

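Polysome-bound RNA of mouse oocytes was sequenced, per the labels' protocols, after 500 pg of amplified cDNA had been cut and tagged by Tn5 transposase. The authors deposited FPKM values for 23235 genes, once as a joint table and once as 12 tables of single libraries, which held the same values (largest difference 0.0). TopHat2 2.0.11, Cufflinks 2.2.1, Bowtie2 2.1.0, CASAVA 1.8 and the build mm9 are named, without role or order, per the submitters' processing notes. For the annotation, strand setting, filters and read numbers nothing is given in the sources used here, so depth is unknown and precision is judged from the 2 libraries per group, which correlated across genes at Pearson's r of 0.865 to 0.949.

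FPKM were analysed as log2(FPKM + 1), which understates changes of low genes, for the 11667 genes with a mean of at least 1 FPKM. A model of 6 group means was fitted with limma 3.58.1 under R 4.3.3 (residual df 6, prior df 4.27, abundance trend), with 2-sided Benjamini-Hochberg adjusted p below 0.05 over all these genes as the call. The test was also tried on simulated data for KO against WT at MI, where it missed most of the changes put in. Only a small part of the genes was changed there, so its misses do not measure those of the real comparison. With 2 libraries per group, a difference that was not called is not read as equal levels. The rule for named genes was as follows. Members with a group mean of at least 10 FPKM are given with the value in every library. Members between 1 and 10 FPKM are given by range and count, and named where called. A fixed set of 16 spindle and transport kinesins is named at any level, and other lists give up to 4 called members per comparison. The members, the lists and the rule were chosen with earlier results of these data known. Alternatives were a pseudocount of 0.1, no filter (16170 genes), rescaling of every library to 1 common total (TPM) and median scaling. Median scaling used genes averaging 10 FPKM or more that were above 0 in every library. Further alternatives were a fit of only the groups compared, a replicate block, and leaving out each library in turn. Locus ends were read in the mm9 genome with Python 3.11.15.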

Additional observations from a re-analysis of the deposited data

Results flagged for a closer look

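For 3 results the change between stages differed between KO and WT by the interaction term of limma. Kif22 at MI against GV changed by -0.59 (log2) in KO and -1.89 in WT, a signed difference of 1.30. Both KO MI libraries (280 and 243 FPKM) lay above both WT MI libraries (123 and 84.7 FPKM). For Kifc3 the signed change in KO minus that in WT was 1.68 at MI against GV and -2.25 at MII against MI. These were not called for MI against GV after median scaling (limma adjusted p = 0.866 for Kif22 and 0.580 for Kifc3), and the second Kifc3 result was called under all 18 alternatives. Their source was not tested. With 2 libraries per group, no library was tested as an outlier within its group.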

How the results depend on the processing

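Of the 34 called kinesin results, 8 were called under all 18 alternatives and 15 without each single library. With TPM, 17 kept their call, 16 lost it and 1 changed sign, and with median scaling 15, 16 and 3. In a fit of only the groups compared 20 kept their call and 14 lost it. Counts of called kinesins are given as higher and lower. The share of all genes called was counted only for the deposited values and for median scaling, and is given above. Counts under the other settings, also with single libraries left out, show how the calls move and are not read against a share. With TPM they were 0 higher for KO against WT at MI and 2 and 2 at MII, 3 lower for WT MI against GV, 1 lower for WT MII against MI, 2 lower for KO MI against GV, 0 lower for KO MII against MI, and for the interactions 0 higher (MI against GV) and 1 higher (MII against MI). With median scaling they were 0 and 1 for KO against WT at MI, 2 and 4 at MII, 1 lower for WT MI against GV, 1 lower for WT MII against MI, 2 lower for KO MI against GV, 1 and 0 for KO MII against MI, and 0 higher and 1 higher for the interactions. Fitting only the groups compared gave 2 lower for WT MI against GV, 0 and 0 for WT MII against MI, 3 and 1 for KO MI against GV, and 2 lower for the second interaction. Without a filter, 1 was lower for KO against WT at GV and 4 were higher in the first interaction. A pseudocount of 0.1 gave 1 higher in the second interaction.

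Differences between KO and WT at MI that changed sign were those of Kif17 (-0.18), Kif2c (-0.37) and Kif4 (-0.20) with median scaling, Kif2c (-0.06) with TPM, and, not called as deposited, Kif23 (-0.25 with TPM, -0.57 with median scaling) and Kif20a (-0.33 and -0.64). The Kif23 interaction for MI against GV (0.67 as deposited) was -0.22 with TPM and -0.39 with median scaling. These settings divide each library by another factor, and the deposited totals do not show which factor holds. The mean kinesin sum with TPM was 1810 in KO against 1503 in WT at GV and 1834 in KO against 1828 in WT at MI, and 2096 in KO against 2654 in WT at MII. With median scaling it was 1373 in KO against 1265 in WT at GV and 1643 in KO against 2042 in WT at MI, and 2068 in KO against 2912 in WT at MII.

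Leaving out single libraries gave 2 to 7 higher for KO against WT at MI, 1 to 5 higher and 0 to 1 lower at MII, 2 to 4 higher and 2 to 5 lower for WT MI against GV, 2 to 3 higher and 1 to 2 lower for WT MII against MI, 3 to 7 higher and 0 to 1 lower for KO MI against GV, 1 to 2 lower for KO MII against MI, and 0 to 3 and 0 to 1 higher in the interactions. WT MI against GV fell to 2 higher without WT MI replicate 1, and KO MI against GV to 3 higher without KO MI replicate 2. A lone library is then assumed to vary like the other groups. Deviations of replicates correlated at -0.0292 to 0.0547 over 15 pairs of groups, so no broad shift shared by replicate number was seen. Whether libraries of equal number were handled together is not stated in the labels. With the replicate number as a block, 33 of the 34 calls were kept and KO against WT at MI gave 7 higher and 0 lower.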

Other observations

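Among the 15 kinesins outside the test, Kif26b was listed at 0 in both KO GV libraries and had 5.07 and 2.91 FPKM in the WT GV libraries. In the fit without a filter its difference at GV was -2.28 (limma adjusted p = 0.0431), the only kinesin called at that stage in any of the settings tried. Kif27, a relative of the Hedgehog pathway kinesin Kif7, and Kif26b were the 2 kinesins that this fit added to the interaction at MI against GV, at 1.74 (limma adjusted p = 0.0449) and 2.50 (limma adjusted p = 0.0366). Kif27 was listed at 0 in both KO GV libraries and had 2.79 and 1.03 FPKM in the WT GV libraries.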
